A study of Homo sapiens with 4 samples.

Results

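Chromatin loops at H3K27ac were compared between SW620 and LS513, both untreated human colorectal cancer cell lines, at loop anchors that the lines share. A pair of anchors was taken as shared where the anchor of one line and that of the other overlapped by at least 50% of both. This left 10044 matched anchors, out of 22207 anchors of filtered loops in SW620 and 20456 in LS513, or 45.2% and 49.1%. Among the 67280 anchors of the 4 libraries of the series, only those of SW620 and LS513 were compared.

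Per the labels, SW620 derives from a Dukes' type C colorectal adenocarcinoma and LS513 from a Dukes' type C colorectal carcinoma, and each line gave 1 library. Neither line was treated. In HiChIP, fixed chromatin is cut, ligated and then enriched for a protein mark, so that each paired-end tag (PET) records 2 DNA segments that lay close together near that mark. Both lines are established cultures of tumour cells, and with 1 library each no difference has a replicate check and no test across samples was possible. Within a population of cells, a contact made in fewer cells and a contact made less often in every cell cannot be told apart.

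H3K27ac, the acetylation of lysine 27 on histone H3, marks active promoters and enhancers. A loop between H3K27ac anchors joins promoters and enhancers or 2 regions of either kind. WNT signalling, the pathway most often activated in this cancer, drives genes such as AXIN2, while CDX1, CDX2 and ELF3 are transcription factors of the intestinal epithelium.

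Filtered loops numbered 62104 with 152421 PETs in SW620 and 74401 with 222113 PETs in LS513. Loops with both ends at matched anchors held 51703 PETs (33.9% of filtered PETs) in SW620 and 85743 PETs (38.6%) in LS513, and rates below are per 1000000 of these PETs. A count of 3 PETs, the limit that a count of 0 allows, is thus a rate of 58.0 in SW620 and 35.0 in LS513. Where a line had 0 PETs, the fold given below sets 3 in its place and is not a lower bound. Each ratio is the rate in SW620 over that in LS513, with an exact conditional 95% interval that covers counting error only. PETs carry no molecular identifiers. A matched anchor or loop was called higher or lower in SW620 where the ratio was at least 2 or at most 0.5, the interval lay beyond 1 and the higher library had at least 10 PETs.

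The promoters of 4 genes at the leading anchors and loops are shown because 2 of them lie at contacts higher in SW620 (FOXQ1 and TMEM170A) and 2 at contacts lower there (LAD1 and TUBB4B). Each run covers 250 bases before to 50 after the gene's start, from RefSeq on GRCh38.p14, and was not placed on the hg19 anchors, since no coordinate was converted. Capitals mark CCAAT or its reverse complement ATTGG. FOXQ1 had 2 matches, TMEM170A 2, LAD1 0 and TUBB4B 3, while 34.6% of 35116 promoters of that length hold at least 1.
FOXQ1, chr6:1311848-1312147, plus strand: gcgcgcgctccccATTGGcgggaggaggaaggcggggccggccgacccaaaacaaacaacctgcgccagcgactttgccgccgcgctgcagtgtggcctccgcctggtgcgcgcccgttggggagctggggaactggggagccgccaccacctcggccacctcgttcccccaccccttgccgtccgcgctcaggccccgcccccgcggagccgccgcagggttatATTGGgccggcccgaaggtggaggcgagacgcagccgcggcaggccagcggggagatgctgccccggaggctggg
TMEM170A, chr16:75464688-75464987, minus strand: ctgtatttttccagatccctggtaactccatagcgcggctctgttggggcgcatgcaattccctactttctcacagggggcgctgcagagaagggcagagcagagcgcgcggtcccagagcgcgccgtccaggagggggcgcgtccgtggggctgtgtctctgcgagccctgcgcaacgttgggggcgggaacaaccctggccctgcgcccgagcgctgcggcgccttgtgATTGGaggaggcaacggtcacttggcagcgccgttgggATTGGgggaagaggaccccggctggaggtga
LAD1, chr1:201399275-201399574, minus strand: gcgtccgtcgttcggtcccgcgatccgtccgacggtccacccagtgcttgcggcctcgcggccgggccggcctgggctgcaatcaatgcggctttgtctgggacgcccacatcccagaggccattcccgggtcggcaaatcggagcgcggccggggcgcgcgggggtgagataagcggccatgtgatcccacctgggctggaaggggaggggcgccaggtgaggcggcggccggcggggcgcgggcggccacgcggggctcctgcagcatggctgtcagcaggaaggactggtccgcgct
TUBB4B, chr9:137241037-137241336, plus strand: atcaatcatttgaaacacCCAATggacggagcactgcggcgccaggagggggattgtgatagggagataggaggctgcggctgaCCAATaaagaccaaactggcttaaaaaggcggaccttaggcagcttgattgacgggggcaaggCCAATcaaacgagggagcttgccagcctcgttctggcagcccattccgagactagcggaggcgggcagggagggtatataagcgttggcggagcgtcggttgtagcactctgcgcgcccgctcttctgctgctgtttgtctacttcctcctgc

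The miR-200 family restrains epithelial to mesenchymal transition by targeting ZEB1 and ZEB2. The mature miRNAs of its chromosome 1 cluster (RefSeq, GRCh38.p14) are shown because an anchor at their genes takes part in one of the 5 shared loops with most PETs in LS513. Capitals mark the seed, bases 2 to 8. The first 2 share the seed AAUACUG, and the third differs from them within it.
hsa-miR-200b-3p: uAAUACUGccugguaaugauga
hsa-miR-429: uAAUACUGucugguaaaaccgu
hsa-miR-200a-3p: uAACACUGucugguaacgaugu

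Of the 10044 matched anchors, 5041 had at least 10 loop PETs in a line. Among these, 486 (9.64%) were called higher in SW620, 555 (11.0%) lower in SW620, and 4000 were not called. The median ratio was 0.905, a shift of -0.14 on the log2 scale. Scaling by the median over matched anchors with at least 10 PETs in both lines, which lowered the ratios, gave 392 higher and 719 lower. Within a factor of 1.5 of equal lay 46.0% of the anchors. At 27 anchors SW620 had no loop PET and at 1 anchor LS513 had none. The minimum of 10 is on raw PETs, out of 51703 in SW620 and 85743 in LS513. A lower rate thus passed it in LS513, which weighs on the counts each way, the median ratio and the counts of 0.

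The PETs of a loop count at both of its anchors, so both ends of a differing loop tend to be called together. With anchors up to 500 kb apart joined, the higher ones formed 238 loci, of which the largest held 20 anchors and 123 held 1. The lower ones formed 276 loci, of which the largest held 16 and 155 held 1. A called neighbour of the same direction within that distance was present for 74.7% of the higher and 72.1% of the lower anchors. The share of all tested anchors with a neighbour that near was not computed, so these shares do not show clustering of the calls.

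**Figure D1:**
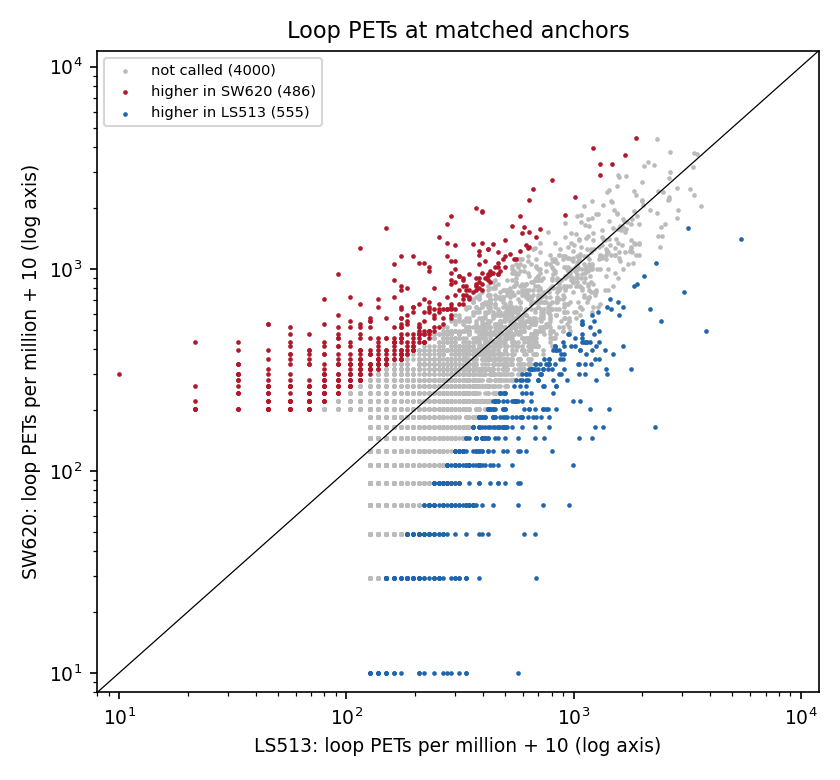
Loop PETs per 1000000 at the 5041 matched anchors with 10 or more PETs in a line, SW620 on the vertical axis and LS513 on the horizontal axis, both log axes after adding 10. The 486 anchors higher in SW620 lie above the line of equality and the 555 lower ones below it.

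The anchor with the firmest excess in SW620 lay upstream of FOXQ1, a forkhead transcription factor of epithelia, at chr6:1195052-1207626 (hg19, as all anchor positions here). It had 82 PETs in SW620, against 12 in LS513, a ratio of 11.3 (6.15 to 22.8). Its partners included the FOXQ1 promoter, whose sequence is printed above, with 26 PETs in SW620 and 7 in LS513. Another partner beyond FOXQ1 had 14 PETs in SW620 and 0 in LS513, at least 7.74-fold higher. The anchor spanned 12.6 kb in SW620 and 8.02 kb in LS513. Further upstream, the loop between chr6:994104-1011999 and chr6:1012503-1030555 had 26 PETs in SW620, against 1 in LS513, a ratio of 43.1 (7.08 to 1768).

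Beside AXIN2, the feedback inhibitor of WNT signalling, the anchor within CEP112 at chr17:63767723-63773694 had 27 PETs in SW620, against 3 in LS513 (14.9, 4.59 to 76.9). Its loop with the anchor at the AXIN2 start had 5 PETs in SW620 and 0 in LS513. Among shared loops between matched anchors, the one with most PETs in SW620 joined the AXIN2 start to the region directly upstream, with 137 PETs in SW620 and 62 in LS513 (3.66, 2.70 to 5.03). The CEP112 anchor and the AXIN2 loop were thus both called higher in SW620, while the AXIN2 start itself, summed over its loops to matched anchors, had 226 PETs in SW620 and 198 in LS513, a ratio of 1.89 (1.56 to 2.30) that stayed under the call. With anchors matched by 1 bp or more, a choice made after seeing the data, the AXIN2 start had 253 PETs in SW620 and 275 in LS513 (1.33, 1.12 to 1.59).

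Further leading anchors higher in SW620 lay by ADRA2C, GATA5 and FMNL1. Downstream of ADRA2C, an adrenergic receptor, an anchor had 74 PETs in SW620 and 21 in LS513 (5.84, 3.56 to 9.99), of which 41 in SW620 and 10 in LS513 reached the ADRA2C start. Most of its PETs in SW620 thus formed the loop to that promoter.

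Between GATA5 and SLCO4A1, an anchor had 22 PETs in SW620 and 2 in LS513 (18.2, 4.48 to 160.0). Its main partner lay within NTSR1, the neurotensin receptor, with 12 PETs in SW620 and 0 in LS513, at least 6.63-fold higher. The anchor at the start of FMNL1, a formin that shapes actin, had 59 PETs in SW620 and 14 in LS513 (6.99, 3.86 to 13.6). Its partners lay at HEXIM1 and HEXIM2, inhibitors of the elongation factor P-TEFb, and at MAP3K14, the kinase of non-canonical NF-kappaB signalling.

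Anchors within CBX5 and HLCS and between CHST6 and CHST5 were also among the 12 leading anchors higher in SW620. Within CBX5, which encodes heterochromatin protein HP1-alpha, an anchor had 22 PETs in SW620 and 1 in LS513 (36.5, 5.90 to 1506), of which 18 in SW620 and 1 in LS513 reached the start shared with HNRNPA1. Within HLCS, the enzyme that attaches biotin to carboxylases, an anchor had 27 PETs in SW620 and 3 in LS513 (14.9, 4.59 to 76.9). Between CHST6 and CHST5, sulfotransferases of glycans, an anchor had 94 PETs in SW620 and 24 in LS513 (6.50, 4.11 to 10.6), and 86 of the PETs in SW620 and 14 of those in LS513 formed the loop to the TMEM170A promoter printed above. That loop alone had a ratio of 10.2 (5.75 to 19.4).

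The remaining named anchors higher in SW620 were an anchor between CES4A and CBFB, the partner subunit of RUNX factors, with 36 PETs in SW620 and 6 in LS513 (9.95, 4.15 to 28.9), an anchor between CDKN2AIPNL and JADE2 with 54 in SW620 and 13 in LS513 (6.89, 3.71 to 13.8), and an anchor between PSMG2 and PTPN2, a phosphatase that restrains JAK/STAT signalling. The last had 15 PETs in SW620 and 0 in LS513, or 8.29-fold higher with 3 PETs set for the 0 (interval from 5.95). It was the only anchor with at least 10 PETs in SW620 and 0 in LS513.

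Among loops, those between PKDCC and EML4 (17 PETs in SW620, 1 in LS513) and from the starts of TK2 and CKLF to CMTM3 (16 in SW620, 1 in LS513) completed the 6 shared loops with the firmest excess in SW620. Over all 1809 shared loops with at least 10 PETs in a line, 227 (12.5%) were higher and 220 (12.2%) lower in SW620. Their median ratio was 0.790, with the minimum of 10 again on raw PETs. Scaled by the median over loops with at least 10 PETs in both lines, which lowered the ratios, the counts were 156 and 413.

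**Figure D2:**
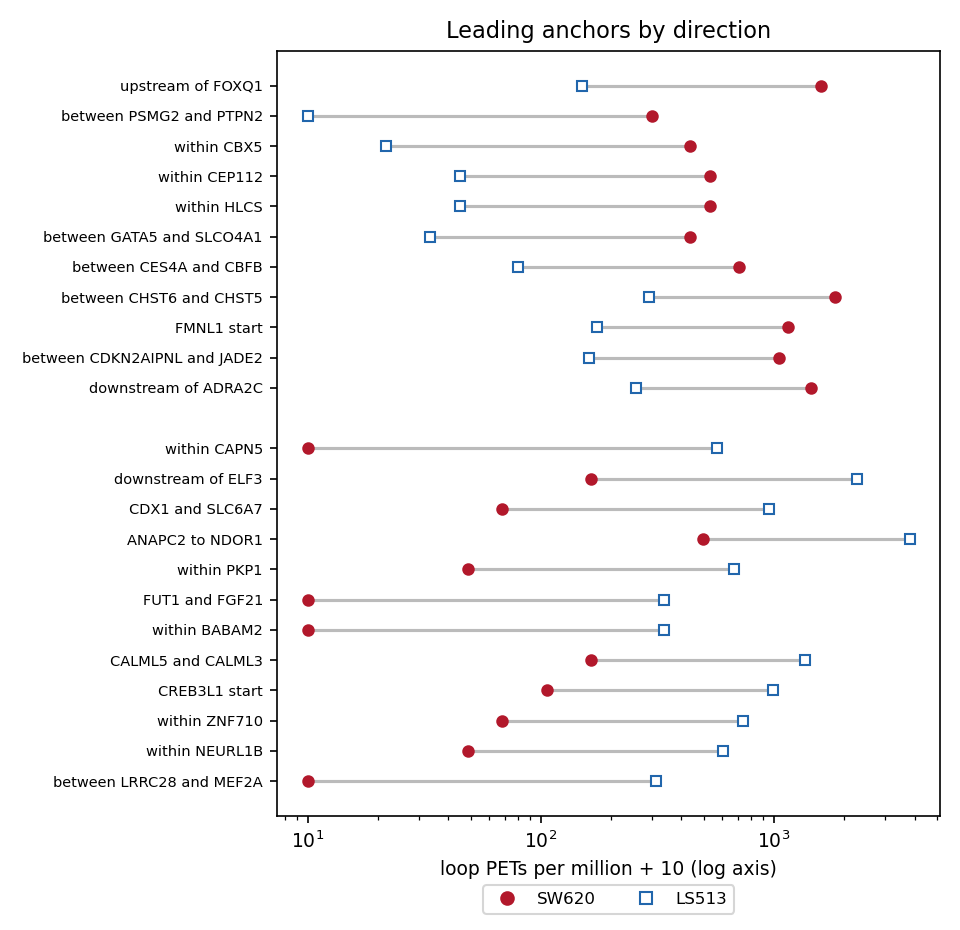
Loop PETs per 1000000 plus 10 (log axis) at 11 of the 12 leading anchors higher in SW620 (top) and the 12 leading anchors lower in SW620 (bottom), each named by nearby genes. Circles are SW620 and squares are LS513, 1 library each, and the 5 points at 10 are counts of 0, 4 of them in SW620.

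The 12 leading anchors lower in SW620 included an anchor downstream of ELF3 and an anchor within CDX1. Both genes encode intestinal transcription factors. Downstream of ELF3, toward GPR37L1, the anchor at chr1:202014032-202019308 had 8 PETs in SW620, against 194 in LS513, a ratio of 0.0684 (0.0291 to 0.137). It did not lie at the ELF3 gene, and its leading partners did not lie at the ELF3 start. With anchors matched by 1 bp or more, a choice made after seeing the data, the ELF3 start was not called. It had 99 PETs in SW620 and 248 in LS513 (0.579, or 0.388 per kb of anchor). Within CDX1 and reaching SLC6A7, the anchor at chr5:149556967-149566656 had 3 PETs in SW620 and 81 in LS513 (0.0614, 0.0124 to 0.186). Its loop to the anchor at the CDX1 start had 1 PET in SW620 and 39 in LS513 (0.0425, 0.00105 to 0.251).

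Another lay in a gene of cell junctions. Within PKP1, which encodes the desmosomal protein plakophilin 1, an anchor had 2 PETs in SW620 and 57 in LS513 (0.0582, 0.00688 to 0.220), and its loop to the start of LAD1, a filament-anchoring protein of basement membranes whose promoter is printed above, had 1 PET in SW620 and 28 in LS513. At CALML5 and CALML3, calmodulin-like proteins of differentiated epithelium, an anchor had 8 PETs in SW620 and 115 in LS513 (0.115, 0.0486 to 0.235). Within CAPN5, a calpain protease, an anchor had 0 PETs in SW620 and 48 in LS513, at least 9.65-fold lower, and 42 of the LS513 PETs ended at the CAPN5 start.

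At the start of CREB3L1, an endoplasmic reticulum stress sensor that acts as a transcription factor, the anchor had 5 PETs in SW620 and 84 in LS513 (0.0987, 0.0312 to 0.240). Its loop to the anchor upstream had 3 PETs in SW620 and 57 in LS513. The anchor at FUT1, a fucosyltransferase, and FGF21, an endocrine growth factor, had 0 PETs in SW620 and 28 in LS513. That was 5.63-fold lower with 3 PETs set for the 0, and the interval of the ratio reached 0.234. The anchor within BABAM2, a subunit of the BRCA1-A complex, had the same counts, and 12 of its LS513 PETs reached the start of FOSL2, an AP-1 subunit.

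The anchor with most PETs among the 24 lay at ANAPC2, SSNA1, TPRN and NDOR1 at chr9:140081129-140097476, with 25 PETs in SW620 and 326 in LS513 (0.127, 0.0811 to 0.191). Its loop to the anchor at RNF208, SLC34A3 and the tubulin gene TUBB4B, whose promoter is printed above, had 14 PETs in SW620 and 230 in LS513 (0.101, 0.0543 to 0.173). Among shared loops between matched anchors it had most PETs in LS513. The other named lower anchors lay within ZNF710 (3 in SW620, 62 in LS513), within NEURL1B, an E3 ligase acting on Notch ligands (2 in SW620, 51 in LS513), and between LRRC28 and MEF2A. The last had 0 PETs in SW620 and 26 in LS513, 21 of which reached the start of MEF2A, a MADS-box factor. These counts of 0 hold for loops with both ends matched. With loops of 1 matched end also counted, that anchor had 7 PETs in SW620 and 26 in LS513 (0.420, 0.154 to 0.992), the FUT1 anchor 10 in SW620 and 87 in LS513 (0.179), and the CAPN5 and BABAM2 anchors 2 each in SW620, against 57 and 31 in LS513. The PSMG2 anchor, at 0 in LS513 above, then had 16 PETs in SW620 and 1 in LS513. The ratios downstream of ELF3 (0.114), within HLCS (8.83), within CBX5 (56.1), downstream of ADRA2C (3.90) and between GATA5 and SLCO4A1 (11.2) also moved by over 1.5 times and kept their calls.

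Per kb of anchor the 24 leading anchors kept their calls, but some ratios lay over 1.5 times nearer to 1. Upstream of FOXQ1 the ratio per kb was 7.22, within CBX5 19.9, within CEP112 8.04, within HLCS 7.63, between GATA5 and SLCO4A1 9.91, by CBFB 6.04 and by JADE2 4.08. Below 1, it was 0.118 downstream of ELF3, 0.0994 within PKP1, 0.223 at CALML5, 0.170 at CREB3L1, 0.152 within ZNF710 and 0.0981 within NEURL1B.

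Loops from TMCC2 to NUAK2, a kinase related to AMPK (1 PET in SW620, 37 in LS513), and within MAVS, the adaptor of RNA sensing (1 in SW620, 36 in LS513), were also among the 6 shared loops with the firmest deficit in SW620. Loops between matched anchors that were present in 1 line with at least 10 PETs numbered 6 in SW620 and 51 in LS513 at full depth, where the minimum of 10 is on raw PETs out of 51703 in SW620 and 85743 in LS513. With LS513 thinned to the PETs of SW620 (1 draw, an alternative chosen after seeing the data) they numbered 14 in SW620 and 12 in LS513. At full depth, those of SW620 included ARID2 to SCAF11 (11 PETs in SW620, 0 in LS513) and those of LS513 included VWA8 to DGKH (0 in SW620, 25 in LS513).

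Of the loops with most PETs in either line, some did not pass the call. At CD9, a tetraspanin, the top loop had 118 PETs in SW620 and 113 in LS513 (1.73, 1.33 to 2.26). At ZNF703, a luminal epithelial factor, it had 102 in SW620 and 186 in LS513 (0.909, 0.707 to 1.16), and between the starts of KRT8 and KRT18, the keratins of simple epithelia, it had 75 in SW620 and 194 in LS513 (0.641, 0.484 to 0.841). From C1orf159 to the miR-200 cluster printed above it had 55 PETs in SW620 and 189 in LS513 (0.483, 0.351 to 0.655). That ratio passed the call for lower in SW620 but not with each chromosome scaled apart (0.600), among loops of 2 or more PETs (0.517), with FDR under 0.01 (0.515) or with LS513 thinned (0.545). Loops at ESRP2, a splicing factor of epithelia (124 in SW620, 84 in LS513), and at KDM6B, a histone demethylase (102 in SW620, 62 in LS513), were called higher in SW620. The loop within MCF2L, a guanine nucleotide exchange factor, had 28 PETs in SW620 and 156 in LS513 (0.298, 0.192 to 0.447) and was called lower.

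Within the 8 gene lists, a gene counted as being at an anchor where its hg19 start lay in or within 5 kb of the anchor. Of 15 intestinal transcription factors, 3 lay at a tested anchor, and 2 of these were lower in SW620 and none higher. CDX1 had 15 PETs in SW620 and 119 in LS513 (0.209, 0.113 to 0.359). EHF, an epithelial ETS factor, had 78 in SW620 and 65 in LS513, a ratio of 1.99 that stayed just under the call. The list's median ratio was 0.209, against 0.905 over all tested anchors.

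Of 11 mucin and secretory genes, 1 was tested: MUC2, the main gel-forming mucin of the colon, was lower with 13 PETs in SW620 and 71 in LS513 (0.304, 0.154 to 0.553). Of 18 epithelial and colonocyte genes, 8 were tested, 1 was higher and 1 lower. ESRP2 had 188 PETs in SW620 and 144 in LS513 (2.17, 1.73 to 2.71) and GPA33, an antigen of intestinal epithelium, had 6 in SW620 and 27 in LS513 (0.369, 0.124 to 0.911). The list's median ratio was 0.611.

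Of 18 WNT targets, 9 were tested, 1 was higher and none lower, with a median ratio of 1.16. SOX9, a factor of crypt progenitors, had 20 PETs in SW620 and 9 in LS513 (3.69, 1.60 to 9.19). Its PETs within the anchor ran the other way, with 11 in SW620 and 31 in LS513, and with loops that have 1 matched end also counted its ratio was 0.582 (0.372 to 0.889), so its direction rests on the choice of loops.

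Of 20 receptor and ERK signalling genes, 10 were tested, 2 were higher and 2 lower, with a median ratio of 1.10. The ERK phosphatase DUSP5 had 25 PETs in SW620 and 18 in LS513 (2.30, 1.21 to 4.48) and the ERK-responsive factor ETV5 had 14 in SW620 and 6 in LS513 (3.87, 1.40 to 12.3). The EGFR ligand EREG had 3 in SW620 and 19 in LS513 (0.262, 0.0496 to 0.890) and the RAS pathway inhibitor SPRED1 had 2 in SW620 and 15 in LS513 (0.221, 0.0245 to 0.951).

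Of 15 IGF and TGF-beta genes, 6 were tested and none was called. Of 8 housekeeping genes, 7 were tested: GAPDH, with 48 PETs in SW620 and 36 in LS513 (2.21, 1.41 to 3.51), was higher and the ribosomal gene RPLP0, with 15 in SW620 and 52 in LS513 (0.478, 0.250 to 0.863), was lower. None of the 15 mesenchymal genes was tested. These counts can be read beside the 9.64% and 11.0% over all anchors. Per kb of anchor, the calls at ESRP2 (1.13), EREG (0.519), DUSP5 (1.83), SPRED1 (0.283) and RPLP0 (0.890) were lost, and with each chromosome scaled apart those at GPA33 (0.458), ESRP2 (1.89), SPRED1 (0.264) and GAPDH (1.73).

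Few markers of other cell types lay at tested anchors, but an untested marker can still have an anchor. COL1A1, CDH1, CDX2 and ELF3 had anchors in both lines that did not match, and SPI1, CDH5 and KRT19 had an anchor in 1 line. COL1A2, COL3A1, DCN, PTPRC, CD3E and KDR had none in either line. Of 8 epithelial markers, 4 were tested and none was called, among them EPCAM with 26 PETs in SW620 and 67 in LS513. Of 5 fibroblast markers, PDGFRB was tested, and its anchor is that of the CDX1 start. Of 4 leukocyte markers, 1 was tested and not called, and of 3 endothelial markers none was tested.

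Many listed genes had an anchor in each line that overlapped by less than 50%. With any overlap of 1 bp or more, a choice made after seeing the data, 12898 anchors matched and 7975 were tested, of which 1287 (16.1%) were higher and 1383 (17.3%) lower in SW620. Of intestinal factors, 9 were then tested with 4 lower, and of epithelial genes 12 with 2 higher and 6 lower. A gene counted here where the anchor of either line lay at its start or within 5 kb of it. These anchors differed in width, so both the ratio and the ratio per kb of anchor are given.

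CDX2, the intestinal master regulator, had 3 PETs in SW620 over an anchor of 3.75 kb and 108 in LS513 over one of 28.5 kb, a ratio of 0.0403 (0.00817 to 0.121), or 0.306 per kb. KRT19, a keratin of simple epithelia, had 1 PET in SW620 and 136 in LS513 (0.0107, or 0.0856 per kb), and the claudin CLDN3 had 14 in SW620 and 224 in LS513 (0.0906, or 0.198 per kb). GATA6, an endodermal factor, had 1 in SW620 and 38 in LS513 (0.0381, or 0.275 per kb). At KRT19 and GATA6 the anchor of only 1 line lay within 5 kb of the gene start. The other line's anchor overlapped that anchor but was not at the start, so these 2 ratios do not compare start with start. The ratios named for these genes were below 1 on both scales. KLF5, a crypt factor, was lower with 24 PETs in SW620 and 87 in LS513, but its ratio per kb was 1.11.

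In the other direction, NKD1, a WNT feedback gene, had 409 PETs in SW620 over 34.5 kb and 51 in LS513 over 6.31 kb, a ratio of 11.6 (8.67 to 15.9), or 2.12 per kb. The AP-1 subunit FOSL1 had 149 in SW620 and 39 in LS513 (5.54, or 2.29 per kb), and CAV1, the caveolar coat protein, had 49 in SW620 and 10 in LS513 (7.10, or 2.54 per kb). EPHB2, a WNT-driven receptor, had 43 in SW620 and 14 in LS513 (4.45), while its ratio per kb was 0.930. The CDH1 anchor, of E-cadherin, had 104 PETs in SW620 and 52 in LS513 (2.90, or 1.33 per kb).

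**Figure D3:**
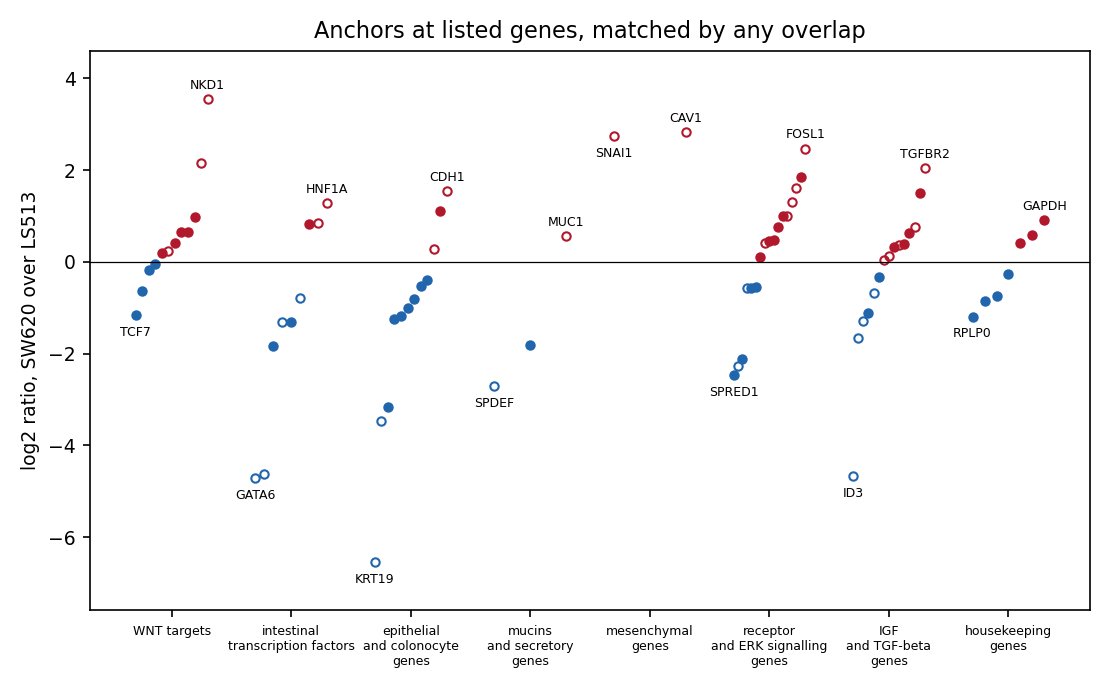
Ratio of loop PETs (log2, SW620 over LS513) at anchors of listed genes with 10 or more PETs in a line, matched by any overlap, with the lowest and highest gene of each list named. Filled points were also tested with the 50% overlap and open points were not, and the ratios are not per kb. KRT19, where the anchor of only 1 line lay within 5 kb of the gene start, is lowest and NKD1 highest.

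PETs that join an anchor with itself were not used to choose the anchors. They followed the loops: the median ratio of these local PETs was 2.15 at the anchors higher in SW620, where 420 of 483 were above 1, and 0.477 at the lower ones, where 487 of 534 were below 1. Over all tested anchors it was 0.914. Across 4923 anchors the log2 ratios of loop and local PETs had Pearson's r of 0.575 and Spearman's rho of 0.557, a description across anchors of the same 2 libraries. Anchor length moved as well: higher anchors had a median of 7.36 kb in SW620 and 5.89 kb in LS513, lower ones 5.26 kb in SW620 and 6.05 kb in LS513, and the log2 length ratio had r of 0.309 with the loop ratio.

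At all 24 leading anchors the local PETs lay on the same side of 1 as the loop PETs. The FOXQ1 upstream anchor had 176 local PETs in SW620 and 100 in LS513 (3.27, 2.55 to 4.22), and the CREB3L1 anchor had 12 in SW620 and 522 in LS513 (0.0427, 0.0219 to 0.0753). The part of acetylation level in the loop ratios was not tested.

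**Figure D4:**
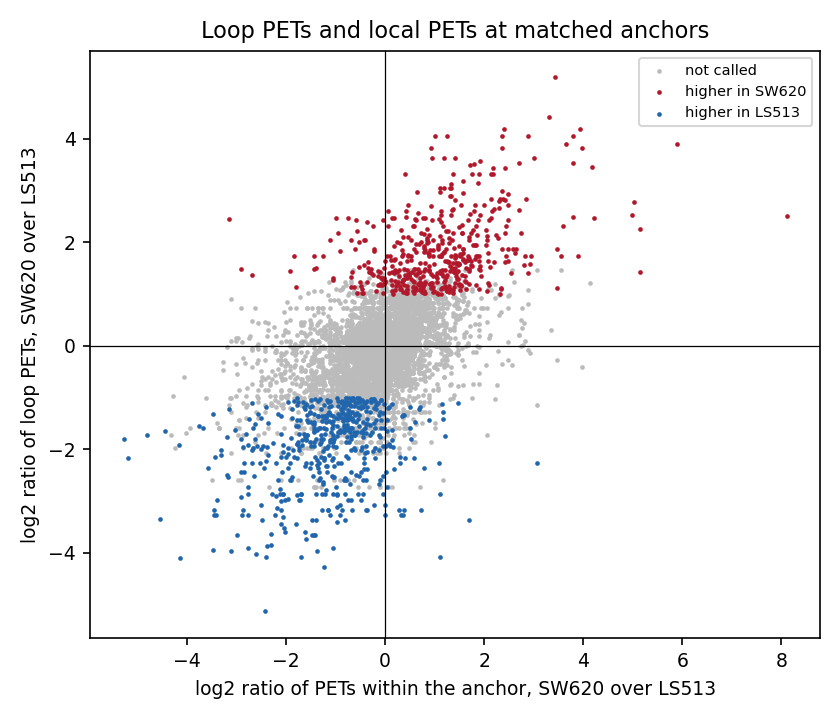
Log2 ratio of loop PETs (vertical) against log2 ratio of PETs within the anchor (horizontal), SW620 over LS513, for matched anchors with at least 10 loop PETs in a line and a count above 0 in both lines for both readouts. Anchors higher in SW620 lie mostly at the upper right and anchors lower in SW620 mostly at the lower left.

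Ratios also differed by chromosome in every readout. Chromosome 13 had a loop PET ratio of 0.439 (0.394 to 0.489), a local PET ratio of 0.472 and a ratio of PET ends between chromosomes of 0.463. It held 0 higher and 34 lower of 84 tested anchors. Chromosome 9 had 0.593, 0.637 and 0.648 for the same readouts, with 8 higher and 73 lower of 219 anchors. The lower anchor at TUBB4B lies on chromosome 9, where scaling by chromosome gave 0.214 for that anchor and 0.170 for its loop to TUBB4B, both still called. The loop at MCF2L lies on chromosome 13.

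Chromosome X stood at the other end with a loop PET ratio of 1.92 (1.75 to 2.12), a local PET ratio of 1.82 and an interchromosomal ratio of 1.79, with 19 higher and 1 lower of 62 anchors. Chromosomes 11 (1.33), 12 (1.28), 20 (1.26) and 17 (1.21) also had loop PET ratios above 1, and chromosome 1 had 0.804. Scaled within each chromosome, 406 anchors were higher and 445 lower, against 486 and 555 with 1 scale for all chromosomes. The MCF2L loop had a ratio of 0.677 under that scaling and was not called. The part of DNA copy number in these ratios was not tested.

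**Figure D5:**
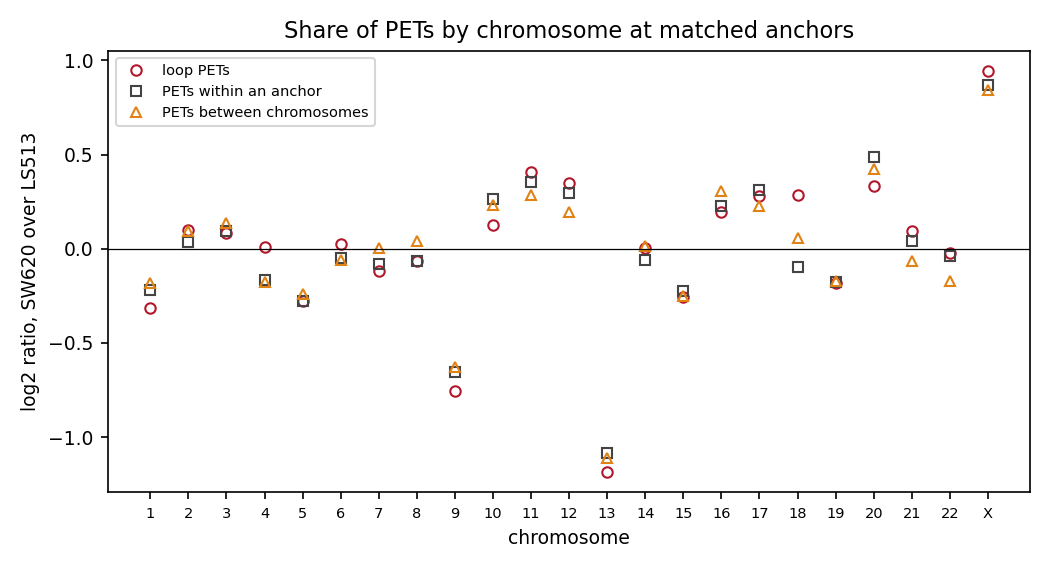
Log2 ratio (SW620 over LS513) of each chromosome's share of loop PETs, PETs within an anchor and PETs between chromosomes at matched anchors. Chromosomes 9 and 13 are low and chromosome X is high in all 3 readouts.

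The lines shared 12224 loops between matched anchors, which were 61.8% of the 19791 in SW620 (61.1 to 62.4, exact binomial 95%) and 45.8% of the 26707 in LS513 (45.2 to 46.4). These shared loops held 81.7% of the PETs in SW620 and 74.4% in LS513. Of all loops between matched anchors, 57.9% in SW620 and 53.5% in LS513 rested on a single PET. The shares of loops here include such loops, as do the partner numbers and the spans with each loop counted once below. With LS513 thinned to the PETs of SW620, the shares were 51.9% of the SW620 loops and 51.0% of the LS513 loops (means of 20 draws). Both shares divide the same shared loops by a line's total. Their nearness at matched depth thus restates near equal totals, 19791 loops in SW620 and 20121 in thinned LS513.

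Tested anchors had 5.89 partner anchors on average in SW620 and 8.14 in LS513, or 6.28 in LS513 at matched depth. At the higher anchors the numbers were 7.15 in SW620 and 4.28 in thinned LS513, and at the lower ones 3.77 in SW620 and 7.18 in thinned LS513. These anchors were called from the PETs of the same loops, so partner numbers that follow the call are no separate result. Thinning matched the library totals, not the PETs at these anchors. The anchor at HDAC7, a class IIa histone deacetylase, had the largest excess among 641 anchors with at least 30 PETs in both lines, with 20 partners in SW620 and 7.70 in thinned LS513. The chaperone gene STIP1 had 29 in SW620 and 16.8 in thinned LS513, although its PET ratio of 1.27 (0.927 to 1.73) was not called. In the same set, the largest deficit was at TMEM184A and PSMG3, with 4 partners in SW620 and 15.6 in thinned LS513, followed by FOXA3, a hepatic and gut pioneer factor, with 4 in SW620 and 13.5 in thinned LS513.

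Weighted by PETs, loops between matched anchors had a median span of 73.4 kb in SW620 and 78.3 kb in LS513 (78.5 kb thinned). Counting each loop once gave 180.0 kb in SW620 and 222 kb in LS513, or 186 kb thinned. PETs of 20 to 50 kb had a ratio of 1.03 (1.01 to 1.06), and PETs of 500 to 2000 kb one of 0.922 (0.890 to 0.954). Among 2859 anchors with at least 10 PETs in both lines, 1311 had a longer and 1531 a shorter median span in SW620, with a median difference of -0.19 kb.

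Single anchors differed far more. At MICA, a ligand of the NKG2D receptor, the median span was 830.2 kb in SW620 and 219 kb in LS513, and at YWHAZ, a 14-3-3 protein, it was 254 kb in SW620 and 75.8 kb in LS513. At PBX2, a homeobox cofactor, it was 66.8 kb in SW620 and 456 kb in LS513, and at SLC25A22, a mitochondrial glutamate carrier, 36.8 kb in SW620 and 238 kb in LS513. These anchors were chosen for the largest difference among 641 with at least 30 PETs in both lines.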

How the data were processed

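Counts of PETs per anchor pair, deposited as whole numbers, were made by the authors with HiC-Pro on hg19, per the submitters' processing notes. How loops were called and anchors chosen is not given in the sources used here. Filtered loops had anchor midpoints 5 kb to 2 Mb apart when checked. A deposited column of p-values adjusted to an FDR, unheaded, was used for 1 alternative. Chromosomes 1 to 22 and X were used.

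Anchors were matched 1 to 1 by longest overlap of at least 50% of both. PETs within an anchor and between chromosomes came from the deposited unfiltered count tables. Ratios had exact conditional (Clopper-Pearson) 95% intervals. LS513 was thinned without replacement in 20 seeded draws.

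Genes were named from 260 hg19 positions written by hand, all on the same chromosome and in the same order (238 of 238 neighbouring pairs) as in RefSeq's GRCh38.p14 table; no coordinate was converted. Named anchors were the first 12 called each way, ranked by the interval bound nearest to 1 and 500 kb apart, with 6 shared loops each way by the same rule, the 5 shared loops with most PETs per line, the 4 anchors each way for span and for partners with at least 30 PETs in both lines, and listed genes at called anchors. Spans and partners give the leading ones of these. A few items that the rule names are not reported here. Genes outside that rule were chosen after their values were seen. Members and lists were chosen with earlier results of these data known. Scripts ran in Python 3.11.15 with scipy 1.17.1, pandas 2.3.3, numpy 2.4.6 and matplotlib 3.10.9.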

Additional observations from a re-analysis of the deposited data

How the results depend on the processing

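No paired analysis was possible because each line had 1 library, so no library could be left out either. Overlap decided the counts most: with 1 bp, 1287 anchors were higher and 1383 lower in SW620, with 637 and 618 shared loops, and with 80% of both anchors there were 105, 126, 56 and 50. With 1 end matched, 856 anchors were higher and 947 lower. Shared loops lower in SW620 were 126 among loops of 2 or more PETs. Scaled by the median ratio over loops with at least 10 PETs in both lines, they were 413. With FDR under 0.01 there were 88 higher and 50 lower shared loops. The share of SW620 loops found in LS513 was 57.8% (1 bp), 69.2% (2 or more PETs), 46.1% (FDR), 52.0% (1 thinned draw) and 59.1% (spans from 20 kb). The span ratio of 0.936 was 0.883 with 2 or more PETs, 0.993 with FDR under 0.01 and 0.809 with each loop once. The ratio of loop numbers at matched depth, 0.983 (0.964 to 1.00), was 0.741 without thinning and turned to 1.01 with 1 end matched. It was 0.738 with 2 or more PETs and 0.771 with FDR under 0.01. In these 2 settings loops were filtered before LS513 was thinned, and LS513 loops thinned to 1 PET still counted. These 2 ratios thus do not compare like with like. Local PETs went the same way as the call at 89.2% of called anchors, 93.4% with 1 bp and 82.2% with FDR under 0.01. With loop PETs taken per kb of anchor, but local PETs not, the share was 76.8%. The cause of these shifts was not tested.

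Of the 24 named anchors, no direction turned in 244 recomputed values over all settings and 5 calls were lost, 3 of them with spans from 20 kb (within CBX5, HLCS and CAPN5), where fewer PETs were counted. With 80% overlap only 4 of the 24 could be recomputed, and 1 of these lost its call. The 1.5-fold setting, with 24 of the values, could neither turn a direction nor lose a call. Named loops lost 6 calls and gained 2. Of 122 values for called listed genes, 26 calls were lost, and SOX9 turned to 0.582 with 1 end matched. Listed genes, as alternatives added after seeing the data: with 1 bp there were 2 higher and 1 lower among WNT targets, 4 lower intestinal factors, 2 higher and 6 lower epithelial genes, 2 lower mucin genes, 2 higher mesenchymal genes, 6 higher and 3 lower receptor genes, 2 higher and 4 lower IGF and TGF-beta genes, and 0 higher housekeeping genes. With 80% overlap there were 0 called in the intestinal, epithelial, mucin, receptor and housekeeping lists, but 0 intestinal, mucin and receptor genes, 2 epithelial and 3 housekeeping genes were left to test. Scaled by chromosome there were 0 higher and 2 lower epithelial genes, 1 lower receptor gene and 0 higher housekeeping genes. With 1 library per line, the spread between cultures is unknown, and anchors under 10 PETs in both lines were not compared.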
